A study of Mus musculus with 15 samples.

Results

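Liver transcriptomes of mice labelled HFD-Res were compared with those of mice labelled SD-NS, to ask what still separated resmetirom-treated livers on a high-fat diet from livers on the standard diet. The comparison uses 6 of the 15 libraries of the series, 3 a side, chosen by their labels: SD-NS replicates 6, 7 and 8, and HFD-Res replicates 29, 30 and 34. The series concerns fatty liver disease of the metabolic kind (MASLD) in mice on a high-fat diet, in which animals received resmetirom or an antisense oligonucleotide, Gc337, against the kinase STK25. Polyadenylated RNA of whole liver was sequenced, 1 library per sample. SD-NS is taken here as the standard-diet group, HFD-NS as the high-fat diet group without drug and HFD-Res as the high-fat diet group given resmetirom. SD and NS are not explained in the labels, which also give no dose, duration, strain, sex or age. No genetic allele is named for any of these groups. HFD-NS replicates 12, 13 and 16 are used only to set each value beside the diet alone and for the direct test of HFD-Res against HFD-NS. Both comparisons with SD-NS share the SD-NS libraries, so their results are not independent of each other.

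Thyroid hormone receptor beta is a ligand-activated transcription factor and the main thyroid hormone receptor of hepatocytes. With thyroid hormone or an agonist bound, it recruits coactivators to genes of fat synthesis, fat burning, cholesterol turnover and hormone metabolism, and unliganded it binds corepressors. Resmetirom is an oral, liver-directed agonist that prefers the beta over the alpha receptor.

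Total counts were 8490747, 5893454 and 3873903 in SD-NS and 4637933, 4173224 and 6814824 in HFD-Res. Levels below are CPM (counts scaled to library size) with TMM normalization, given in replicate order, and values after ± are SDs over 3 libraries. The labels say that the libraries are separate samples but not how the animals were housed or processed, so p-values measure only the spread between these samples. Hepatocyte markers dominated every library: Alb, the albumin gene, stood at 109897, 92457 and 86977 CPM in SD-NS and at 59945, 54619 and 53817 in HFD-Res (log2 fold change -0.78, adjusted p = 0.00109). Of 12 hepatocyte markers 2 rose and 6 fell (3 falls without HFD-Res replicate 30), and their summed level was 133439 to 156915 CPM in SD-NS and 91292 to 99606 in HFD-Res. In whole liver, fewer cells of a type and less RNA per cell cannot be told apart. Xist was at or under 0.742 CPM and the Y-linked Ddx3y between 109 and 180 in all 15 libraries, the pattern of male animals. Adipoq, an adipocyte hormone, was 0 in all SD-NS libraries and averaged 0.120 ± 0.109 CPM in HFD-Res. Stk25, the antisense target, was at 50.6, 53.3 and 47.8 CPM in SD-NS and 46.9, 37.7 and 41.3 in HFD-Res and did not pass the test (log2 fold change -0.27, adjusted p = 0.0766), although it did without HFD-Res replicate 29 (adjusted p = 0.0435). Of 14 genes of Stk25, its paralogs and its STRIPAK complex, 3 were called, as falls. Exons of Stk25 overlap another gene over 23.1% of their length, and such reads are shared.

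Of 13189 genes tested, 1517 (11.5%) rose and 2026 (15.4%) fell in HFD-Res against SD-NS at a Benjamini-Hochberg adjusted p under 0.05 in edgeR's quasi-likelihood test, 26.9% in either direction. At 2-fold or more, 659 genes (5%) rose and 471 (3.57%) fell. Rises made up 42.8% of calls on TMM-scaled counts but 61.5% on TPM recomputed from the counts and 61.4% on the deposited TPM, so the balance of rises and falls depends on the scale. The median log2 fold change over all genes was -0.009. HFD-NS against SD-NS gave 1589 rises (12%) and 2122 falls (16.1%), and the direct comparison of HFD-Res with HFD-NS gave 820 rises (6.22%) and 889 falls (6.74%). At 2-fold or more these were 592 rises (4.49%) and 292 falls (2.21%), and 305 rises (2.31%) and 276 falls (2.09%). All 3 HFD-Res libraries lay above all 3 SD-NS libraries for 2507 genes (19%) and below them for 3035 (23%). Falls made up 9.70% of genes spanning under 10 kb, 17.2% of those of 10 to 100 kb, 20.6% of those of 100 to 200 kb and 15.6% of those of 200 kb or more. Each gene list below is therefore read against these shares.

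**Figure D1:**
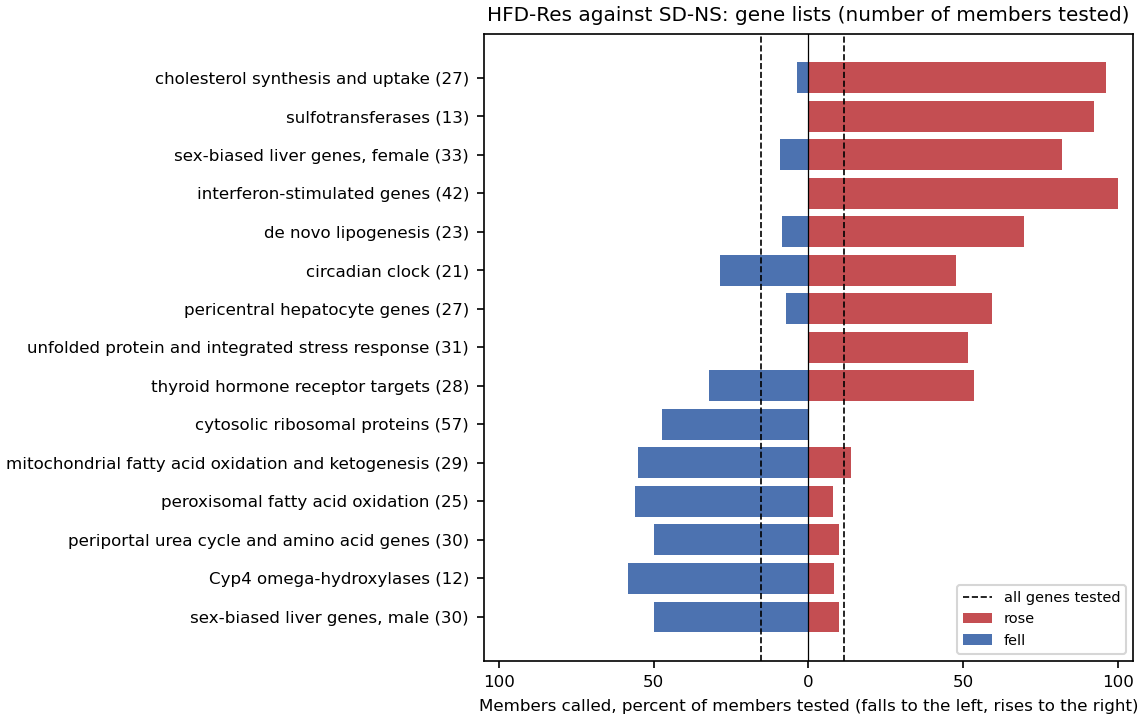
Percent of tested members of 15 gene lists that rose (right, red) or fell (left, blue) in HFD-Res against SD-NS, with the shares over all 13189 genes as dashed lines (11.5% and 15.4%). Cholesterol synthesis, sulfotransferase, female-biased and interferon-stimulated lists lie mostly to the right, and male-biased, Cyp4, peroxisomal and periportal lists mostly to the left.

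Targets of the thyroid hormone receptor rose more often than they fell in HFD-Res against standard-diet liver, and Dio1, Thrsp and Me1 rose against both untreated groups. Of 34 listed targets 31 were in the table and 28 were tested. Of these 15 rose (53.6%) and 9 fell (32.1%), both above the 11.5% and 15.4% of all genes. The median log2 fold change was 0.40. The summed level of the 31 targets was nevertheless lower in HFD-Res, at 10461 to 10823 CPM. It was 11776 to 12908 CPM in SD-NS and 11548 to 12917 in HFD-NS. The same list gave 9 rises and 9 falls in HFD-NS against SD-NS, with a median log2 fold change of -0.12. Dio1, the deiodinase that activates and clears thyroid hormone (chromosome 4, 107148662 to 107164365 in mm39), was at 57.2, 86.1 and 45.3 CPM in SD-NS, at 136.4 ± 10.6 in HFD-NS and at 674, 637 and 725 in HFD-Res. The HFD-Res libraries lay far above both other groups, 10.8-fold over SD-NS (log2 fold change 3.43 with an SE of 0.286, adjusted p = 2.92e-06), and also rose against HFD-NS (log2 fold change 2.32, adjusted p = 0.000102). Thrsp, a lipogenic nuclear protein, went from 9.45, 6.22 and 7.31 CPM in SD-NS to 361, 233 and 475 in HFD-Res, with 94.2, 44.6 and 129 in HFD-NS. No library overlapped between these groups (log2 fold change 5.51 with an SE of 0.469, adjusted p = 8.24e-06 against SD-NS), and the rise over HFD-NS (adjusted p = 0.004) was not called in a fit of those 2 groups only (adjusted p = 0.0775).

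Me1, the malic enzyme that supplies NADPH for fat synthesis, ran in opposite directions in the diet and in the drug group. It was at 155, 190.1 and 148 CPM in SD-NS, fell to 128, 97.1 and 102 in HFD-NS (log2 fold change -0.59, adjusted p = 0.0135) and rose to 321, 459 and 361 in HFD-Res (log2 fold change 1.21, adjusted p = 4.24e-05). Gpd2, the mitochondrial glycerol phosphate dehydrogenase, was at 75.8 ± 10.3 CPM in SD-NS, 46.7 ± 3.62 in HFD-NS and 99.0 ± 11.8 in HFD-Res. HFD-Res and SD-NS libraries overlapped, the call against SD-NS (log2 fold change 0.38, adjusted p = 0.0193) was lost without SD-NS replicate 7 (adjusted p = 0.117), SD-NS replicate 8 (0.0559), HFD-Res replicate 30 (0.072) or HFD-Res replicate 34 (0.0869), and the rise over HFD-NS was 1.09 on the log2 scale (adjusted p = 2.91e-06). Klf9, a hormone-induced transcription factor, did not pass the test against SD-NS (log2 fold change 0.42, adjusted p = 0.078), with 169.6 ± 12.2 CPM in SD-NS and 226 ± 36.05 in HFD-Res. It did pass without HFD-Res replicate 30 (adjusted p = 0.0381), and HFD-NS stood at 235 ± 18.4 CPM.

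Among the 18 tested receptors, transporters and corepressors of thyroid hormone, 7 rose and 2 fell, with 4 rises without SD-NS replicate 6, SD-NS replicate 7 or HFD-Res replicate 34. Thrb itself, the receptor that resmetirom binds (chromosome 14, 4431608 to 4808736 in mm39), was at 43.00, 43.9 and 38.3 CPM in SD-NS and 56.5, 51.8 and 50.7 in HFD-Res. The groups did not overlap, but the call (log2 fold change 0.34 with an SE of 0.122, adjusted p = 0.046) was lost without any 1 of the 6 libraries, at adjusted p-values from 0.0686 without HFD-Res replicate 34 to 0.153 without SD-NS replicate 8. Thra, the alpha receptor, rose from 11.5 ± 2.21 to 18.3 ± 2.36 CPM (log2 fold change 0.67, adjusted p = 0.00928) and stood at 24.1 ± 3.41 in HFD-NS, with 8.25% of its exons shared with a neighbour, and was not called without SD-NS replicate 7 (adjusted p = 0.0613). Slc16a10, a transporter of thyroid hormone and aromatic amino acids, was at 133, 164 and 138 CPM in SD-NS and at 229, 232 and 235 in HFD-Res (log2 fold change 0.68, adjusted p = 0.000382), above the 130.1 ± 14.8 of HFD-NS (adjusted p = 0.000101 for HFD-Res against HFD-NS). Ncor1, a corepressor of the unliganded receptor, fell from 144 ± 4.56 to 107 ± 5.501 CPM (log2 fold change -0.42, adjusted p = 0.00136) and was at 110.4 ± 11.1 in HFD-NS.

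Falling targets included Pdk4, the kinase that shuts off pyruvate oxidation, which was at 239, 257 and 262 CPM in SD-NS and at 21.8, 15.6 and 14.8 in HFD-Res. All HFD-Res libraries were far below all SD-NS libraries (log2 fold change -3.87, adjusted p = 3.3e-05), and HFD-NS was also low, at 22.8 ± 10.7 CPM (HFD-Res minus HFD-NS was -0.39 on the log2 scale, with an SE of 0.406 and an adjusted p of 0.612). Gsta2, a glutathione S-transferase, and Nat8, an acetyltransferase, fell against both diets' untreated livers. Gsta2 was at 20.9 ± 6.41 CPM in SD-NS, 17.3 ± 4.73 in HFD-NS and 4.36 ± 1.09 in HFD-Res (log2 fold change -2.29, adjusted p = 5.37e-05 against SD-NS and adjusted p = 0.000397 against HFD-NS). Nat8 was at 10.96 ± 2.68, 12.9 ± 2.09 and 4.13 ± 0.833 CPM in the same order (log2 fold change -1.44, adjusted p = 0.000637 against SD-NS and adjusted p = 0.000229 against HFD-NS). Their HFD-Res libraries lay below every SD-NS library.

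**Figure D2:**
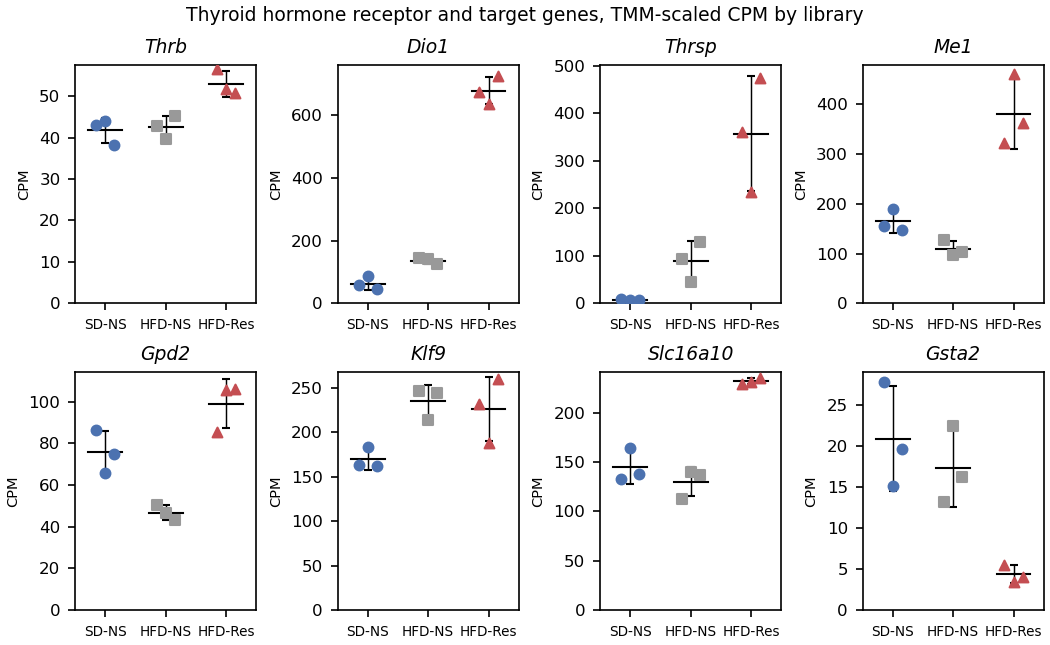
TMM-scaled CPM of Thrb and 7 thyroid hormone target or transport genes in each library of SD-NS (circles), HFD-NS (squares) and HFD-Res (triangles), with the group mean as a horizontal bar and the SD as a vertical bar (3 libraries each, linear axes from 0). Dio1, Thrsp, Me1 and Slc16a10 are highest in HFD-Res, and Gsta2 is lowest there.

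Cholesterol synthesis genes stood far above standard-diet liver in HFD-Res, and above the untreated high-fat diet as well. This pathway builds sterols from acetyl-CoA, and its genes are switched on by the transcription factor SREBP2 when the cell's sterol falls. Of 27 genes of sterol synthesis and uptake tested, 26 rose and 1 fell, with a median log2 fold change of 3.003. HFD-NS against SD-NS gave 15 rises, 2 falls and a median of 0.56, and 25 of the genes rose in HFD-Res against HFD-NS directly. Early in the pathway, Hmgcs1, the HMG-CoA synthase, was at 185, 161 and 190.1 CPM in SD-NS, 248 ± 72.5 in HFD-NS and 2257, 2767 and 1667 in HFD-Res (log2 fold change 3.64 with an SE of 0.226, adjusted p = 2.43e-08). Its HFD-Res libraries exceeded all others. Mvd, which makes isopentenyl pyrophosphate, was near the detection limit in SD-NS at 0.399, 0.778 and 1.13 CPM, averaged 6.03 ± 2.87 in HFD-NS and reached 43.5, 55.7 and 36.6 in HFD-Res (log2 fold change 6.002 with an SE of 0.413, adjusted p = 2.68e-08). Sqle, the squalene epoxidase and a control point of the pathway (chromosome 15, 59186941 to 59203042 in mm39), was at 9.59, 11.9 and 6.75 CPM in SD-NS, 33.5, 24.2 and 18.3 in HFD-NS and 322, 380.4 and 319.8 in HFD-Res. The 3 groups did not overlap, and Sqle rose 36.3-fold over SD-NS (log2 fold change 5.15 with an SE of 0.227, adjusted p = 6.11e-10) and further above HFD-NS (log2 fold change 3.75, adjusted p = 9.6e-09).

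Msmo1, a sterol demethylase late in the pathway, was at 29.95, 28.6 and 26.2 CPM in SD-NS, 97.7, 86.2 and 66.4 in HFD-NS and 959, 1085 and 728 in HFD-Res. Here too each group lay above the one before (log2 fold change 5.02 with an SE of 0.209, adjusted p = 8.25e-11 against SD-NS). Lpcat3, a phospholipid remodelling enzyme that makes no sterol, was the only listed member that fell, from 111 ± 2.15 to 84.1 ± 8.14 CPM (log2 fold change -0.40, adjusted p = 0.00436). Its call was lost on TPM (adjusted p = 0.0726), and 11.6% of its exons overlap another gene. A sterol regulatory element was searched as TCACNCCAC on both strands in the 250 bases before gene starts. It was found in 1 of 19 list genes with a RefSeq promoter (5.26%), in 1.296% of genes tested and in 1.225% of all 27025 promoters. Lists of other functions held it as often, such as the mitochondrial oxidation list with 8.33% of 24. The cholesterol list gene with the element is Hmgcs1, named for this reason after the list had been searched. A window shortly before its RefSeq start (GRCm38.p6, chr13:119690191-119690250, plus strand) is shown to place the element, in capitals, in the promoter of a gene that rose 12.5-fold.
Hmgcs1: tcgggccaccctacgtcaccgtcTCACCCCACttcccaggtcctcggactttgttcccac

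**Figure D3:**
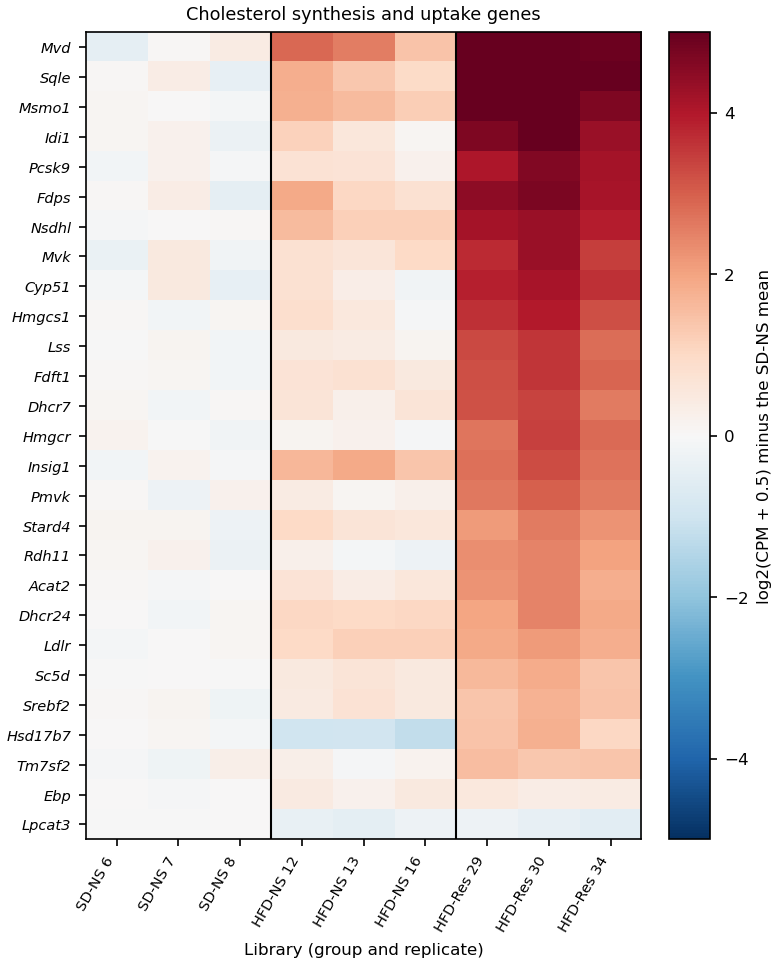
Heat map of 27 genes of cholesterol synthesis and uptake (rows) in the 9 libraries of SD-NS, HFD-NS and HFD-Res (columns), as log2(CPM + 0.5) minus the SD-NS mean, with colours limited at 5 on either side. In HFD-Res every gene but Lpcat3 is red to some depth, while HFD-NS shows paler and mixed colours.

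More genes of new fat synthesis rose than fell in HFD-Res against the standard diet, although the list's summed level was lower. Of 23 tested, 16 rose and 2 fell (median log2 fold change 1.06), against 8 and 5 in HFD-NS (median 0.13). In the direct comparison with HFD-NS, 14 rose. The summed level of the list was 10029 to 11859 CPM in SD-NS and 8160.1 to 9627 in HFD-Res. Fasn, the fatty acid synthase, was at 39.5, 34.4 and 33.2 CPM in SD-NS, 86.6, 52.5 and 69.05 in HFD-NS and 255, 388 and 257 in HFD-Res. Its HFD-Res libraries were clear of both other groups, 8.39-fold above SD-NS (log2 fold change 3.06 with an SE of 0.206, adjusted p = 7.92e-08) and above HFD-NS (log2 fold change 2.11, adjusted p = 4.27e-06). Pnpla3, a lipid droplet protein, averaged 0.716 ± 0.426 CPM in SD-NS and 0.601 ± 0.522 in HFD-NS and reached 6.21, 9.89 and 17.9 in HFD-Res (log2 fold change 3.85, adjusted p = 6.57e-05). The listed genes that fell were Insig2, which holds SREBP in the endoplasmic reticulum, and Elovl5, a fatty acid elongase. Insig2 went from 1176, 1115 and 1057 CPM in SD-NS to 506, 426 and 422 in HFD-Res (log2 fold change -1.31, adjusted p = 4.8e-06), with 383 ± 99.1 in HFD-NS. Elovl5 went from 2063 ± 146 to 871 ± 136.1 CPM (log2 fold change -1.24, adjusted p = 2.9e-06), with 1034 ± 176 in HFD-NS. For both genes HFD-Res lay below SD-NS in every library, and its differences from HFD-NS were 0.24 (SE 0.152) and -0.25 (SE 0.142) on the log2 scale.

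Fat oxidation genes were lower in HFD-Res than in standard-diet liver. Peroxisomal and omega oxidation shorten and hydroxylate fatty acids under the control of the fatty acid receptor PPARα, and mitochondrial oxidation burns them. Of 25 peroxisomal genes tested, 14 fell and 2 rose. In the mitochondrial and ketogenic list, 16 of 29 fell and 4 rose, and of 12 Cyp4 genes 7 fell and 1 rose. HFD-NS against SD-NS gave 14, 15 and 5 falls for the same lists. Ehhadh, the peroxisomal bifunctional enzyme (chromosome 16, 21580035 to 21606584 in mm39), was at 6496, 6552 and 7237 CPM in SD-NS, 688, 781 and 571 in HFD-NS and 1129, 1045 and 859 in HFD-Res. Both high-fat groups were far below SD-NS, and HFD-Res kept 14.9% of the SD-NS level (log2 fold change -2.74 with an SE of 0.155, adjusted p = 2.53e-10). HFD-Res lay above HFD-NS (log2 fold change 0.57, adjusted p = 0.0123), a call lost without HFD-NS replicate 16 (adjusted p = 0.0779) or HFD-Res replicate 29 (0.0633).

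Acsl1, which activates long-chain fatty acids, was lower in each group than in the one before, at 3949 ± 304 CPM in SD-NS, 2084 ± 453 in HFD-NS and 905 ± 40.5 in HFD-Res (log2 fold change -2.13, adjusted p = 2.49e-08 against SD-NS and adjusted p = 4.1e-05 against HFD-NS). Cyp4a14, a PPARα-driven omega-hydroxylase, was at 13375, 13899 and 13975 CPM in SD-NS and 2727, 2496 and 2044 in HFD-Res (log2 fold change -2.505, adjusted p = 0.000966), and at 3533 ± 509 in HFD-NS. Cyp4a31 was the only Cyp4 gene that rose, from 92.4, 98.8 and 108 CPM in SD-NS to 218, 194 and 167 in HFD-Res (log2 fold change 0.96, adjusted p = 9.3e-05), while HFD-NS was at 23.00, 26.8 and 20.8. It therefore stood lowest in HFD-NS and highest in HFD-Res (log2 fold change 3.04, adjusted p = 6.32e-10 between them). Cyp4a genes are close copies whose reads may be split between them, and the sum over 8 Cyp4a genes, a sum chosen after the data had been seen, ran from 19450 to 19898 CPM in SD-NS, 5143 to 6424 in HFD-NS and 3642 to 4817 in HFD-Res.

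A few oxidation genes rose, and of the 4 mitochondrial ones 2 did without SD-NS replicate 7 or HFD-Res replicate 30. Ucp2, a mitochondrial carrier, went from 12.2, 8.75 and 10.1 CPM in SD-NS to 80.5, 51.98 and 42.9 in HFD-Res (log2 fold change 2.46, adjusted p = 0.00251), and Abcd2, a peroxisomal importer of very long fatty acids, from 22.1, 23.5 and 27.3 to 122, 147 and 84.1 (log2 fold change 2.28, adjusted p = 0.0024). Neither overlapped between the groups. Fgf21, a fasting-linked liver hormone, was at 17.3, 23.7 and 29.5 CPM in SD-NS, 12.4, 9.44 and 5.48 in HFD-NS and 40.3, 94.8 and 69.2 in HFD-Res. It rose over HFD-NS (log2 fold change 2.91, adjusted p = 0.000952), but its call against SD-NS (log2 fold change 1.56, adjusted p = 0.0157) was lost without SD-NS replicate 6 (adjusted p = 0.0691), SD-NS replicate 7 (0.0503) or HFD-Res replicate 30 (0.0516), and on TPM (0.0693).

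Triglyceride and lipid droplet genes fell more often than they rose. Of 28 triglyceride and lipid droplet genes, 5 rose and 13 fell against SD-NS, and of 19 uptake and binding genes 2 rose and 4 fell, with 5 rises in a fit of the 2 groups only. Cd36, the fatty acid translocase (chromosome 5, 17986688 to 18093957 in mm39), was at 75.9, 64.0 and 71.2 CPM in SD-NS, 472, 467 and 362 in HFD-NS and 432, 379.7 and 352 in HFD-Res. Both high-fat groups were several times above SD-NS (log2 fold change 2.46 with an SE of 0.259, adjusted p = 1.56e-05 for HFD-Res), and their difference from each other was -0.16 on the log2 scale (SE 0.240, adjusted p = 0.738). Mogat1, a monoacylglycerol acyltransferase typical of fatty liver, was at 0.855 ± 0.471 CPM in SD-NS, 11.7 ± 3.996 in HFD-NS and 7.29 ± 1.54 in HFD-Res (log2 fold change 2.98, adjusted p = 3.6e-05). Fitm1, a fat storage-inducing membrane protein, rose from 3.33, 5.44 and 2.25 to 13.1, 12.2 and 15.98 CPM (log2 fold change 1.88, adjusted p = 0.00265), with 30.1, 22.97 and 28.3 in HFD-NS.

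Falls on the same lists included the following genes. Cidec, which fuses droplets, was at 64.0, 75.05 and 85.2 CPM in SD-NS, 53.9 ± 18.4 in HFD-NS and 17.1, 8.97 and 16.3 in HFD-Res (log2 fold change -2.38, adjusted p = 0.0126). Plin4 was at 92.1, 86.1 and 52.03 CPM in SD-NS, 103 ± 9.50 in HFD-NS and 23.8, 8.74 and 24.3 in HFD-Res. All HFD-Res libraries of both genes were below those of SD-NS, although the Plin4 call (log2 fold change -2.005, adjusted p = 0.017) was lost without SD-NS replicate 6 (adjusted p = 0.0545) or HFD-Res replicate 30 (0.0546). Plin2, the main coat protein of hepatocyte droplets, fell from 1912, 1732 and 1864 CPM in SD-NS to 887, 666 and 806 in HFD-Res (log2 fold change -1.22, adjusted p = 3.61e-05), and HFD-NS was at 721 ± 138. Lpin2, a phosphatidate phosphatase, fell from 829 ± 49.1 to 321 ± 76.8 CPM (log2 fold change -1.37, adjusted p = 5.04e-06), and HFD-NS was at 336.9 ± 45.7. Slc27a1, a fatty acid transport protein, was at 18.7 ± 5.15 CPM in SD-NS, 18.8 ± 1.25 in HFD-NS and 6.41 ± 1.72 in HFD-Res, lower than in either untreated group (adjusted p = 4.6e-05 against SD-NS and 5.51e-05 against HFD-NS).

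**Figure D4:**
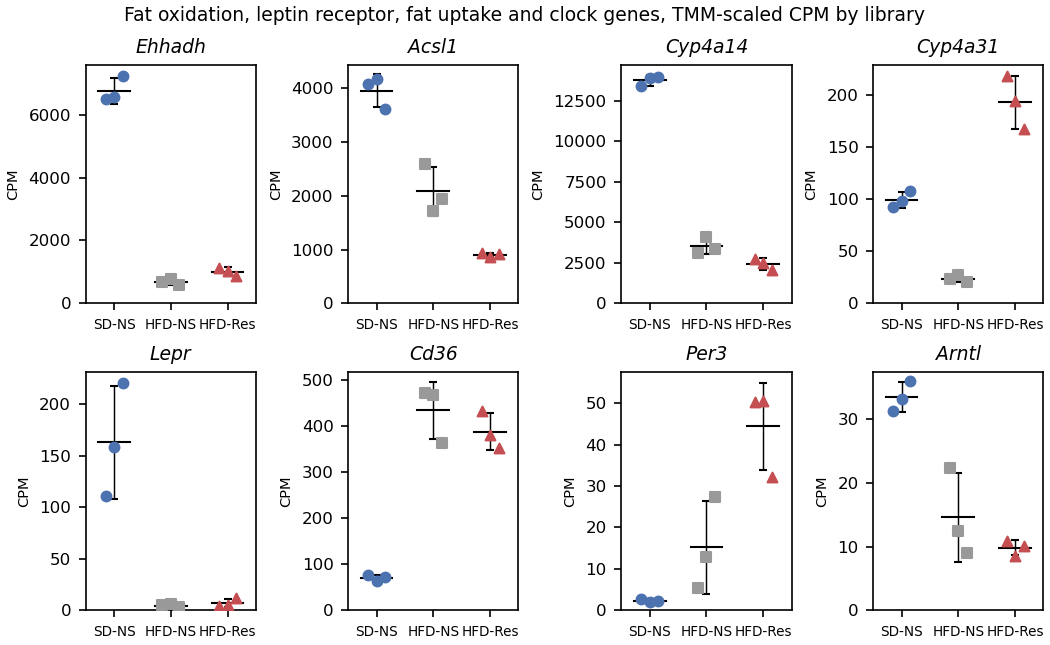
TMM-scaled CPM of 4 fat oxidation genes, the leptin receptor gene, Cd36 and 2 clock genes in each library of SD-NS (circles), HFD-NS (squares) and HFD-Res (triangles), with group means and SDs (3 libraries each, linear axes from 0). Ehhadh and Lepr are far below SD-NS and Cd36 far above it in both high-fat groups, Acsl1 averages lowest in HFD-Res and Cyp4a31 rises above SD-NS.

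Bile acid genes gave 8 rises (32%) and 5 falls (20%) among 25 tested, beside 11.5% and 15.4% of all genes. Cyp7a1, the rate-limiting enzyme of bile acid synthesis, was at 39.8, 152 and 98.4 CPM in SD-NS, 255, 149.7 and 189 in HFD-NS and 606, 722 and 249 in HFD-Res. The HFD-Res libraries were all above those of SD-NS (log2 fold change 2.45 with an SE of 0.497, adjusted p = 0.00409), but the call was lost in a fit of the 2 groups only (adjusted p = 0.0656). Cyp8b1, which sets the share of cholic acid, went the opposite way, from 511, 749 and 741 CPM to 246, 161 and 140.3 (log2 fold change -1.87, adjusted p = 0.000122), and was also below the 427 ± 68.3 of HFD-NS (adjusted p = 0.00519). Cyp2c70, the mouse enzyme that makes muricholic acids, rose from 139 ± 73.2 to 640.1 ± 108 CPM (log2 fold change 2.20, adjusted p = 0.00464), and Akr1d1, a steroid reductase of the same pathway, from 99.3 ± 22.4 to 381 ± 40.7 (log2 fold change 1.94, adjusted p = 5.77e-07). Abcc3, an export pump for bile acid and drug conjugates (chromosome 11, 94234121 to 94283816 in mm39), was at 206, 212 and 209 CPM in SD-NS, 327, 370.4 and 328 in HFD-NS and 19.9, 16.1 and 14.7 in HFD-Res. It rose with the diet alone and was lowest in HFD-Res, at 8.08% of SD-NS (log2 fold change -3.64 with an SE of 0.142, adjusted p = 1.24e-12; against HFD-NS, log2 fold change -4.35, adjusted p = 1.15e-13), with 6.71% of its exons shared with another gene.

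Among 26 apolipoprotein and lipoprotein genes, 4 rose (15.4%) and 4 fell (15.4%), near the 11.5% and 15.4% of all genes. Members are therefore given as single genes. Angptl8, an insulin-induced inhibitor of lipoprotein lipase, was at 5.46, 6.61 and 7.03 CPM in SD-NS, 21.4 ± 4.73 in HFD-NS and 19.5, 24.8 and 28.04 in HFD-Res (log2 fold change 1.96, adjusted p = 0.000944). Sort1, a sorting receptor for lipoproteins, was at 10.9 ± 3.46 CPM in SD-NS, fell to 4.91 ± 0.507 in HFD-NS (log2 fold change -1.19, adjusted p = 0.00651) and rose to 23.1 ± 4.34 in HFD-Res (log2 fold change 1.03, adjusted p = 0.00702). It was one of the genes on opposite sides of SD-NS in the 2 high-fat groups, and the direct difference was 2.22 on the log2 scale (adjusted p = 3.1e-05). Apob, the core protein of lipoprotein particles secreted by liver, fell from 10292, 11774 and 11331 to 5673, 6629 and 5294 CPM (log2 fold change -0.92, adjusted p = 9.77e-06), and Apoa5, which promotes triglyceride clearance, from 1329 ± 68.6 to 825 ± 88.1 (log2 fold change -0.69, adjusted p = 0.000858). HFD-NS stood at 7192 ± 469 CPM for Apob and 924 ± 132 for Apoa5. Apof, a lipid transfer inhibitor, rose from 576 ± 18.8 to 992 ± 82.1 CPM (log2 fold change 0.79, adjusted p = 4.29e-06), and Angptl4, another lipase inhibitor, fell from 277 ± 20.6 to 132 ± 46.0 (log2 fold change -1.07, adjusted p = 0.0116).

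Genes with sex-dependent expression in mouse liver held many of the largest differences. In male mice, pulses of growth hormone acting through STAT5 keep male-biased genes on and female-biased genes off. Of 33 female-biased genes tested, 27 rose and 3 fell in HFD-Res against SD-NS (median log2 fold change 2.95), while HFD-NS gave 9 rises and 4 falls (median 0.23). Of 30 male-biased genes tested, 15 fell and 3 rose (median -1.43), and in HFD-NS 11 fell and 2 rose (median -1.22). Yet the 31 male-biased genes counted summed to 29607 to 46708 CPM in SD-NS and 39467 to 48549.6 in HFD-Res, Mup17 among them having risen. Directly against HFD-NS, 19 female-biased genes rose, and 6 male-biased genes fell and 2 rose. Sulfotransferases, several of them on the female-biased list, gave 12 rises among 13 (median 3.46).

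Sult2a1, a steroid and bile acid sulfotransferase, was almost absent from SD-NS at 0.533, 0.778 and 0.281 CPM and from HFD-NS at 1.401, 0.372 and 0.843, and stood at 368, 340.4 and 254 in HFD-Res (log2 fold change 9.13 with an SE of 0.264, adjusted p = 1.03e-13). Sult2a2, Sult2a3 and Sult2a5 averaged 0.174 ± 0.198, 0.252 ± 0.286 and 0.658 ± 0.434 CPM in SD-NS and 66.97 ± 17.8, 30.03 ± 13.1 and 135 ± 74.2 in HFD-Res (adjusted p = 9.1e-08, 1.91e-07 and 7.51e-06). Reads of these close copies may be exchanged between them, and the sum over 8 Sult2a genes, chosen after the data had been seen, was 960.2 to 1342 CPM in SD-NS, 995.8 to 1289.9 in HFD-NS and 1508 to 1694 in HFD-Res. The family total rose by a far smaller fold than these members, which held very little of the SD-NS total. Its HFD-Res libraries all lay above those of both untreated groups. Cyp3a16, a female and fetal P450, was at 1.20, 0.778 and 0.563 CPM in SD-NS and 374, 313 and 111 in HFD-Res (log2 fold change 8.14, adjusted p = 3.46e-06). Cyp2a4, a female-biased steroid hydroxylase, was at 2.93, 4.67 and 3.66 CPM in SD-NS, 7.33 ± 4.11 in HFD-NS and 632, 481 and 471 in HFD-Res (log2 fold change 7.16, adjusted p = 1.17e-06). Ntrk2, a neurotrophin receptor on the female-biased list, went from 0.399, 0.778 and 0.844 CPM to 86.7, 86.5 and 79.9 (log2 fold change 7.05, adjusted p = 2.37e-06), with 3.62 ± 3.04 in HFD-NS. In each of these genes every HFD-Res library exceeded every library of both untreated groups.

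Cux2, a repressor that female liver expresses, was at 0.533, 0.778 and 0.281 CPM in SD-NS, 0, 0.621 and 0.527 in HFD-NS and 22.7, 23.5 and 12.9 in HFD-Res (log2 fold change 5.09 with an SE of 0.480, adjusted p = 6.46e-07). Prom1, a membrane protein also used as a bile duct marker, was at 0.728 ± 0.388 CPM in SD-NS, 0.528 ± 0.196 in HFD-NS and 6.495 ± 3.48 in HFD-Res (log2 fold change 2.95, adjusted p = 0.000137). Stat5a, a mediator of growth hormone, rose from 10.2 ± 3.004 to 27.7 ± 2.36 CPM (log2 fold change 1.43, adjusted p = 0.000102), and Prlr, the prolactin receptor, from 156 ± 34.1 to 375 ± 38.2 (log2 fold change 1.27, adjusted p = 0.00693), in a growth hormone list of 16 genes with 4 rises and 2 falls. Nipal1, a magnesium transporter, and Acot3, a peroxisomal thioesterase, were female-biased genes that fell, Nipal1 from 27.3 ± 3.99 to 7.19 ± 3.15 CPM (log2 fold change -1.97, adjusted p = 0.00186) and Acot3 from 176 ± 33.6 to 52.8 ± 22.4 (log2 fold change -1.77, adjusted p = 0.00711).

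On the male-biased list, Cyp2d9, a testosterone hydroxylase, was at 1057, 969 and 646 CPM in SD-NS, 628, 307 and 582 in HFD-NS and 37.7, 35.7 and 66.7 in HFD-Res. It fell to 5.24% of SD-NS (log2 fold change -4.24 with an SE of 0.460, adjusted p = 4.95e-05) and fell against HFD-NS too (log2 fold change -3.42, adjusted p = 0.000431). Cyp4a12a, the male fatty acid hydroxylase, was at 143, 317 and 171 CPM in SD-NS, 102, 75.6 and 83.2 in HFD-NS and 2.57, 3.91 and 5.67 in HFD-Res (log2 fold change -5.63, adjusted p = 0.000324). Its copy Cyp4a12b fell from 131 ± 49.0 to 1.68 ± 0.757 CPM (log2 fold change -6.30, adjusted p = 0.00426), a call lost in limma-voom (adjusted p = 0.0693). Serpina1e, a male-biased antitrypsin gene, was at 3778, 7445 and 3583 CPM in SD-NS, 306, 59.8 and 387 in HFD-NS and 33.2, 41.2 and 55.5 in HFD-Res (log2 fold change -6.82, adjusted p = 0.00165). All libraries of both high-fat groups were below SD-NS, and HFD-Res held the lowest values. Its difference from HFD-NS did not pass the test (log2 fold change -2.53, adjusted p = 0.139), although it did in DESeq2 (adjusted p = 0.0257). Over the 5 Serpina1a to Serpina1e genes, a sum chosen after the data had been seen, SD-NS had 15814 to 20561 CPM, HFD-NS 9831 to 12546 and HFD-Res 11807 to 13130.

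C6 and C8a, also male-biased, encode subunits of the complement membrane attack complex. C6 was at 282, 487 and 256 CPM in SD-NS and 18.4, 19.3 and 27.3 in HFD-Res (log2 fold change -3.96, adjusted p = 0.00148), and C8a at 860.1, 1159.5 and 955 and 129.5, 119.6 and 217 (log2 fold change -2.67, adjusted p = 4.23e-07). C8a was below HFD-NS as well, which averaged 509.9 ± 12.2 CPM (adjusted p = 5.62e-05). Slco1a1, a male-biased organic anion transporter that also carries thyroid hormone, fell from 467, 708 and 446 CPM to 20.3, 29.2 and 79.8 (log2 fold change -3.62, adjusted p = 0.0182), but was not called without HFD-Res replicate 29 (adjusted p = 0.0691) or HFD-Res replicate 30 (0.0653). Hsd17b2, a steroid dehydrogenase, rose slightly from 84.4 ± 4.34 to 138 ± 13.5 CPM (log2 fold change 0.71, adjusted p = 0.000356).

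Major urinary protein genes split. These pheromone carriers are among the most abundant liver transcripts and lie in a cluster of near-identical copies, so values of single members are uncertain. Mup9 went from 20.6, 31.7 and 21.9 CPM in SD-NS, with 21.8, 17.6 and 24.98 in HFD-NS, to 9054, 8787 and 8603 in HFD-Res (log2 fold change 8.48, adjusted p = 1.24e-12), Mup17, a male-biased list member, averaged 183 ± 224 and 19553 ± 1010.3 CPM in SD-NS and HFD-Res (adjusted p = 0.000371), and Mup18 10.8 ± 9.58 and 1987 ± 478 (adjusted p = 3.2e-06). Mup21 fell, from 312, 276 and 221 CPM in SD-NS to 11.1, 10.4 and 16.7 in HFD-Res (log2 fold change -4.38, adjusted p = 0.00204), with 282 ± 179 in HFD-NS. Summed over 22 Mup genes, a sum chosen after the data had been seen, the level was 21033 to 32473 CPM in SD-NS, 7071 to 17806 in HFD-NS and 60492 to 70419 in HFD-Res. The family total was therefore lowest in HFD-NS and highest in HFD-Res, with no overlap between the 3 groups.

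**Figure D5:**
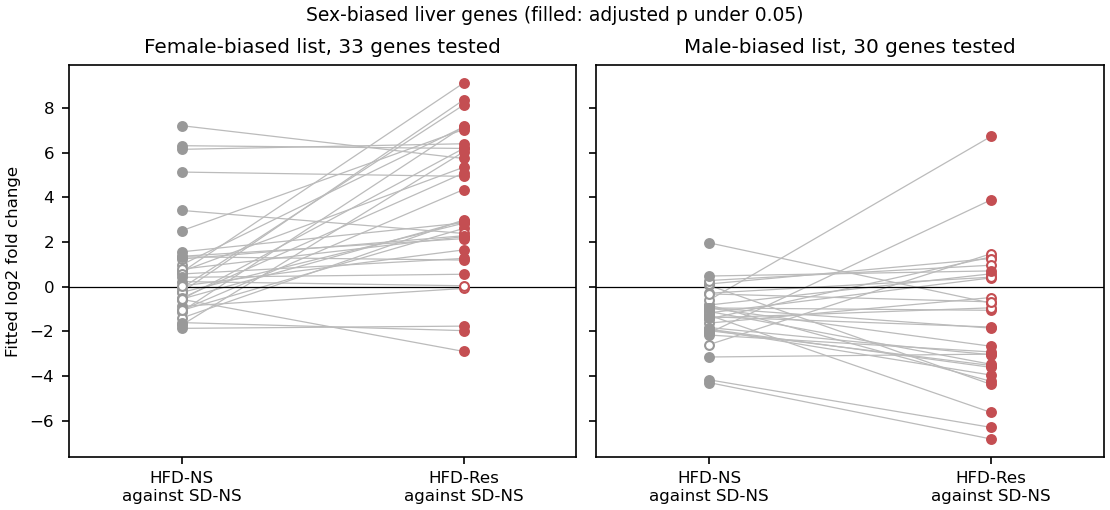
Fitted log2 fold changes against SD-NS of 33 female-biased (left) and 30 male-biased (right) genes in HFD-NS (grey) and HFD-Res (red), 1 line per gene, with filled points at an adjusted p under 0.05. Most female-biased genes lie above 0 in HFD-Res, and male-biased genes lie mostly below 0 in both groups; both columns share the SD-NS libraries.

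Drug-metabolising genes changed in both directions. Of 35 genes of P450 families and other xenobiotic enzymes, 14 rose and 11 fell, the latter 7 without SD-NS replicate 6 and 7 on TPM. Cyp3a11, the main mouse target of the pregnane X receptor, was at 8174, 6675 and 6100.4 CPM in SD-NS, 1939, 1890.1 and 1328 in HFD-NS and 337.8, 267 and 313 in HFD-Res. It kept 4.38% of the SD-NS level (log2 fold change -4.51 with an SE of 0.373, adjusted p = 3.25e-06), and HFD-Res was below HFD-NS as well (log2 fold change -2.49, adjusted p = 0.000431). Cyp2c23, an epoxygenase of arachidonic acid, was at 322, 283 and 251 CPM in SD-NS, 159 ± 26.3 in HFD-NS and 19.7, 15.6 and 17.7 in HFD-Res (log2 fold change -4.01, adjusted p = 2.3e-11). Among 39 NRF2 targets and glutathione genes, 7 rose and 9 fell. Gstt3 and Gstt1, theta-class transferases, rose from 22.3 ± 5.203 to 137 ± 20.7 CPM (log2 fold change 2.60, adjusted p = 0.00129) and from 129 ± 28.6 to 508 ± 49.1 CPM (log2 fold change 1.97, adjusted p = 2.45e-05). Gstp1, the male-biased pi-class transferase, fell from 627, 586 and 336 CPM to 59.1, 68.8 and 59.7 (log2 fold change -3.05, adjusted p = 0.00077), and Ephx1, the microsomal epoxide hydrolase, from 473 ± 19.7 to 258 ± 38.7 (log2 fold change -0.88, adjusted p = 4.55e-05).

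Genes of glucose metabolism fell more often than all genes tested, and their rises were near the share over all genes. G6pc, the glucose-6-phosphatase that releases glucose, was at 747, 815 and 704 CPM in SD-NS, 169, 174 and 179.5 in HFD-NS and 95.9, 184 and 161 in HFD-Res (log2 fold change -2.36, adjusted p = 0.00414 against SD-NS). The list of 34 glucose and glycogen genes held 5 rises (14.7%, and 11.5% of all genes) and 9 falls (26.5%, and 15.4% of all genes). Its median log2 fold change was 0.04. It held 3 rises without SD-NS replicate 7, HFD-Res replicate 30 or HFD-Res replicate 34. Ppp1r3c, a glycogen-targeting subunit of protein phosphatase, was at 88.4, 74.5 and 75.7 CPM in SD-NS, 82.6, 104 and 78.2 in HFD-NS and 13.3, 20.9 and 15.3 in HFD-Res. It fell in HFD-Res against both untreated groups (adjusted p = 3.27e-05 against SD-NS and 3.97e-05 against HFD-NS). Its relative Ppp1r3g fell from 2.80 ± 1.21 CPM to 0.296 ± 0.257 (log2 fold change -3.42, adjusted p = 0.0019) and was at 0.153 ± 0.134 in HFD-NS.

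Lepr, the leptin receptor gene (chromosome 4, 101574604 to 101672549 in mm39), was at 111, 158 and 221 CPM in SD-NS, 5.02, 5.59 and 2.74 in HFD-NS and 4.28, 5.06 and 11.5 in HFD-Res. Both high-fat groups were at a small part of SD-NS, HFD-Res at 4.25% (log2 fold change -4.46 with an SE of 0.352, adjusted p = 1.86e-06), with a difference from HFD-NS of 0.74 on the log2 scale (SE 0.433, adjusted p = 0.32). The insulin, glucagon and leptin list gave 6 rises and 8 falls among 23. Irs2, an insulin receptor substrate, was at 57.2, 56.6 and 50.3 CPM in SD-NS, 19.7, 16.1 and 18.2 in HFD-NS and 13.7, 10.6 and 6.10 in HFD-Res, each group below the one before (log2 fold change -2.48, adjusted p = 2.43e-08 against SD-NS and adjusted p = 0.00539 against HFD-NS). Igfbp1, an insulin-repressed secreted protein, fell from 253, 309 and 363 CPM to 46.5, 79.1 and 93.4 (log2 fold change -2.07, adjusted p = 0.00293), and HFD-NS was at 35.3 ± 15.4. Pik3r1, the regulatory subunit of PI3-kinase, rose from 71.8 ± 5.95 to 149 ± 10.4 CPM (log2 fold change 1.05, adjusted p = 6.9e-07), and HFD-NS was at 131 ± 13.8.

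Clock genes moved in both directions between HFD-Res and SD-NS livers. In the core loop, BMAL1 (Arntl) with CLOCK or NPAS2 drives the Per, Cry and Rev-erb genes through E-boxes, and DBP and its rival NFIL3 act on D-boxes. Of 21 clock genes tested, 10 rose and 6 fell, and HFD-NS gave 11 and 5. Arntl was at 31.3, 33.2 and 36.00 CPM in SD-NS, 22.3, 12.4 and 8.96 in HFD-NS and 10.9, 8.51 and 10.02 in HFD-Res (log2 fold change -1.76, adjusted p = 0.00161), and Npas2 at 12.4, 7.58 and 6.75 in SD-NS and 1.71, 1.61 and 1.02 in HFD-Res (log2 fold change -2.695, adjusted p = 0.000467). Nfil3 also fell, from 46.7 ± 9.20 to 13.2 ± 2.86 CPM (log2 fold change -1.84, adjusted p = 0.000216), and was below the 35.9 ± 12.1 of HFD-NS (adjusted p = 0.00247). Rises included Per3, Dbp and Ciart. Per3 was at 2.66, 1.94 and 2.25 CPM in SD-NS, 5.25, 12.9 and 27.4 in HFD-NS and 50.3, 50.6 and 32.3 in HFD-Res (log2 fold change 4.23 with an SE of 0.700, adjusted p = 0.00108). Dbp was at 3.06, 3.11 and 3.09, 7.47, 19.7 and 57.7 and 49.5, 52.7 and 46.8 CPM in the same order (log2 fold change 3.997, adjusted p = 0.00436), with 32.1% of its exons shared with a neighbour, and Ciart, a repressor of the loop, at 0.799, 0.778 and 0.844, 2.69, 4.97 and 17.8 and 15.6, 8.74 and 10.5 (log2 fold change 3.82, adjusted p = 0.00624).

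HFD-NS replicate 16 was the highest HFD-NS library for Per3, Dbp and Ciart. Over all 3 HFD-NS libraries HFD-Res did not pass the test for Per3, Dbp or Ciart (adjusted p = 0.0768, 0.449 and 0.695), and without replicate 16 it did for all 3 (0.012, 0.0347 and 0.00694). The labels do not give the hour at which livers were taken or whether mice had eaten, so neither can be told apart from diet and drug here. The E-box, searched as CACGTG, was present in the 250 bases upstream of 27.8% of 18 clock genes with a RefSeq promoter of 9.995% of genes tested and of 6.86% of all 27025 promoters. Lists of other functions held it as often, such as the lysosomal list with 38.5% of 26. The D-box, searched as TTANGTAA on both strands, was in 5.56% of the clock genes, 1.725% of genes tested and 2.44% of all. The only clock promoter with a D-box match was that of Per3. Windows of Ciart, from 130 to 31 bases before its RefSeq start with 3 E-boxes (GRCm38.p6, chr3:95882259-95882358, minus strand), and of Per3, from 215 to 136 bases before it with 2 D-boxes (chr4:151044801-151044880, minus strand), show the elements, in capitals, beside genes among the largest clock rises.
Ciart: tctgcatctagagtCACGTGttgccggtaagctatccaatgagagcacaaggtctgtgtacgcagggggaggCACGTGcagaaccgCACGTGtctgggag
Per3: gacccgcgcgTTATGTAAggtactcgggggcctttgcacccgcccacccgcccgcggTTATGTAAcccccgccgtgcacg

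Interferon-stimulated genes, which carry antiviral defence, were higher in HFD-Res than in SD-NS: 42 of 42 tested rose, with a median log2 fold change of 1.56. HFD-NS against SD-NS gave 28 rises (median 0.87), and 24 rose directly between HFD-Res and HFD-NS. Rises against SD-NS numbered 38 to 42 under the alternatives run. Gbp3, an interferon-induced GTPase with close copies, was at 7.85, 4.08 and 9.28 CPM in SD-NS, 10.7, 25.8 and 24.4 in HFD-NS and 98.3, 64.4 and 88.8 in HFD-Res. Its 3 groups did not overlap (log2 fold change 3.59 with an SE of 0.371, adjusted p = 2.12e-05 against SD-NS, and log2 fold change 2.05, adjusted p = 0.000889 against HFD-NS). Ifi44 rose in the same order, from 5.67 ± 0.548 CPM over 12.1 ± 2.68 to 35.6 ± 11.5 (log2 fold change 2.64, adjusted p = 2.94e-05 against SD-NS). Oas3, a sensor of double-stranded RNA, was low throughout, at 0.666, 0.778 and 0.563 CPM in SD-NS and 5.14, 3.22 and 3.92 in HFD-Res (log2 fold change 2.56, adjusted p = 0.000796).

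Antigen presentation, which is also under interferon control, gave 5 rises among 17 (10 rises in a fit of the 2 groups only), while HFD-NS against SD-NS gave 15 rises. Medians were 0.64 in HFD-Res and 0.98 in HFD-NS on the log2 scale. Directly between HFD-Res and HFD-NS, 0 of these genes rose and 0 fell (median -0.28). Tap1 and Tap2, the peptide transporter, averaged 13.2 ± 3.29 and 8.48 ± 1.68 CPM in SD-NS and 24.3 ± 6.77 and 16.3 ± 3.79 in HFD-Res (adjusted p = 0.00198 and 0.000484), near the 28.4 ± 4.24 and 17.2 ± 0.226 of HFD-NS. The interferon element, searched on both strands as GAAA, any 2 bases and GAAA again, was present in the 250 bases upstream of 46.7% of 30 interferon-stimulated genes with a RefSeq promoter, of 3.30% of genes tested and of 3.46% of all 27025 promoters. Windows of Gbp3 (75 to 16 bases before its RefSeq start, GRCm38.p6, chr3:142559969-142560028, plus strand) and Oas3 (100 to 41 bases before it, chr5:120777700-120777759, minus strand) are shown with the element in capitals, as examples among the largest rises. In Gbp3 the capitals hold 2 overlapping matches on the opposite strand.
Gbp3: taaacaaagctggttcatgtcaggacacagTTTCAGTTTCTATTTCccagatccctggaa
Oas3: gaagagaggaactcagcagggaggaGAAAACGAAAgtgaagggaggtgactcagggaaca

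Inflammatory, acute phase and complement genes did not move as one. Of 30 cytokine and chemokine genes, 7 rose and 1 fell, but rises dropped to 3 without SD-NS replicate 7 or HFD-Res replicate 34 and to 4 without any of the other 4 libraries. Cxcl10, an interferon-induced chemokine, was at 3.20, 3.31 and 2.25 CPM in SD-NS, 15.9, 20.6 and 14.7 in HFD-NS and 10.5, 7.59 and 11.2 in HFD-Res, between the other groups but still above SD-NS (log2 fold change 1.71, adjusted p = 9.23e-05). Nfkbia, the inhibitor of NF-kB, fell from 69.97 ± 5.08 to 45.9 ± 5.56 CPM (log2 fold change -0.60, adjusted p = 0.00159). Among 30 acute phase genes, 2 rose and 8 fell, with 5 falls without SD-NS replicate 8 or HFD-Res replicate 29. The rises were Saa4, from 129.5, 156 and 158 CPM to 534, 407 and 849 (log2 fold change 2.02, adjusted p = 1.24e-05), and Steap4, a metalloreductase, from 47.0 ± 5.12 to 219 ± 118 (log2 fold change 2.23, adjusted p = 0.00174), and HFD-NS stood at 657 ± 128 and 219 ± 73.8. The falls included Itih3, a hyaluronan-binding inhibitor chain, from 1404 ± 238 to 659 ± 63.8 CPM (log2 fold change -1.09, adjusted p = 1.54e-05), and Lbp, the endotoxin-binding protein, from 148 ± 7.23 to 86.3 ± 19.6 (log2 fold change -0.77, adjusted p = 0.00325).

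Complement and coagulation genes gave 16 falls and 3 rises among 39 (median log2 fold change -0.15), against 8 and 7 in HFD-NS. Besides C6 and C8a, C8b fell from 330.4 ± 73.6 to 93.8 ± 33.7 CPM (log2 fold change -1.81, adjusted p = 0.00596). Mbl2, a lectin that starts complement activation, rose from 273 ± 29.4 to 598 ± 34.7 CPM (log2 fold change 1.13, adjusted p = 1.95e-06), and F11, coagulation factor XI, from 33.7 ± 6.57 to 78.5 ± 6.86 (log2 fold change 1.23, adjusted p = 2.04e-05).

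Matrix genes gave 3 rises and 2 falls among 35, while HFD-NS gave 13 rises. The count of rises in HFD-Res moved with the settings: it was 1 without SD-NS replicate 6, 9 in DESeq2 and 17 in a fit of the 2 groups only. Medians were 0.63 in HFD-Res and 0.78 in HFD-NS on the log2 scale. In HFD-Res, 23 of these genes lay above SD-NS without overlap (19% of all genes did). Directly between HFD-Res and HFD-NS, 1 rose and 3 fell. Col15a1, a basement membrane collagen, was at 6.79, 3.89 and 3.66 CPM in SD-NS, 2.34, 4.72 and 3.27 in HFD-NS and 20.1, 29.4 and 20.8 in HFD-Res. It was highest in HFD-Res in every library (log2 fold change 2.21, adjusted p = 0.000181 against SD-NS and adjusted p = 4.29e-05 against HFD-NS). Mmp12, a macrophage elastase, was at 0.399, 0.583 and 0.281 CPM in SD-NS, 8.76, 9.31 and 2.53 in HFD-NS and 2.36, 2.99 and 2.03 in HFD-Res, and its call (log2 fold change 2.43, adjusted p = 0.0148) was lost without SD-NS replicate 6 (adjusted p = 0.0692) and in limma-voom (0.109). Ccn2, a growth factor of scarring and a YAP target, fell from 22.2, 12.4 and 21.7 CPM to 4.28, 3.22 and 6.10 (log2 fold change -1.99, adjusted p = 9.17e-06), with 6.27 ± 1.07 in HFD-NS.

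Markers of other liver cells were called in small numbers in HFD-Res against SD-NS. Of 15 Kupffer cell markers 1 was called, the fall of C6 (with 3 rises in a fit of the 2 groups only), and Clec4f was at 58.3, 40.1 and 66.7 CPM in SD-NS and 82.2, 52.4 and 59.9 in HFD-Res (log2 fold change 0.24, adjusted p = 0.773). Their summed level was 733 to 875 CPM in SD-NS and 484 to 601 in HFD-Res, a sum that includes C6. Markers of lipid-associated macrophages gave 1 rise and 2 falls among 19, against 9 rises in HFD-NS. Their median log2 fold change was 1.03, 8 of them lay above SD-NS without overlap (19% of all genes did), and rises numbered 3 in DESeq2 and 5 in a fit of the 2 groups only. They had a summed level of 1859 to 2057 CPM in SD-NS and 839.5 to 1080.1 in HFD-Res that is mostly Plin2, which hepatocytes also express. The falling members were Plin2 and Cd9, a tetraspanin, which went from 37.1 ± 2.89 to 11.9 ± 2.69 CPM (log2 fold change -1.66, adjusted p = 4.52e-07). Sinusoidal endothelium markers gave 2 rises and 1 fall among 17 tested. Rises numbered 4 in a fit of the 2 groups only and 1 without SD-NS replicate 7, SD-NS replicate 8, HFD-Res replicate 29 or HFD-Res replicate 34. The 18 sinusoidal markers counted summed to 439 to 673 CPM in SD-NS and 799 to 938 in HFD-Res, with Cd36 included. Lyve1, their defining gene, averaged 14.9 ± 3.60 and 21.96 ± 2.46 CPM, and its call (log2 fold change 0.53, adjusted p = 0.0487) was lost without SD-NS replicate 7 (adjusted p = 0.204), SD-NS replicate 8 (0.142), HFD-Res replicate 29 (0.151) or HFD-Res replicate 34 (0.118).

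Stellate cell markers gave 4 rises among 18, but 1 without SD-NS replicate 7 or HFD-Res replicate 34 and 2 without SD-NS replicate 8 or HFD-Res replicate 29, and 8 in a fit of the 2 groups only. Of these 18 markers 9 lay above SD-NS without overlap (19% of all genes did). Their sum was 481 to 579 CPM in SD-NS and 631 to 706 in HFD-Res. Bile duct markers gave 2 rises and 3 falls among 15 tested. All 18 counted, untested ones included, summed to 297 to 347 CPM in SD-NS and 261 to 312 in HFD-Res. Epcam was near the limit of detection, at 1.02 ± 0.405 and 2.84 ± 0.137 CPM. Its call (adjusted p = 0.0236) was lost without SD-NS replicate 7 (0.056), SD-NS replicate 8 (0.074), HFD-Res replicate 29 (0.0585) or HFD-Res replicate 34 (0.0551). Among red cell genes Hbb-bs, a beta globin gene whose exons almost wholly overlap another gene model, was at 117 ± 53.02 and 133 ± 31.8 CPM (adjusted p = 0.861), and Alas2, which makes heme in red cells, fell from 41.01 ± 4.19 to 13.1 ± 1.56 (log2 fold change -1.64, adjusted p = 5.02e-06). Summed levels were 111 to 157 CPM in SD-NS and 157 to 162.9 in HFD-Res over 12 vascular endothelium markers. They were 4.67 to 7.03 and 5.98 to 9.63 over 15 T and NK cell markers, of which 6 were tested. The part of these cells in other differences was not tested.

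Many stress response genes were above standard-diet liver in both high-fat groups. Of 31 genes of the unfolded protein and integrated stress responses, which slow translation and rebuild amino acid supply, 16 rose, and HFD-NS gave 16 rises and 3 falls. Psat1, the serine synthesis enzyme, was at 0, 0.583 and 0.563 CPM in SD-NS, 0.117, 0.621 and 0.632 in HFD-NS and 4.28, 11.7 and 9.15 in HFD-Res (log2 fold change 4.66 with an SE of 0.648, adjusted p = 2.67e-05). Mthfd2, of mitochondrial folate metabolism, went from 1.07 ± 0.514 CPM over 1.17 ± 0.323 to 6.02 ± 2.57 in the same order (log2 fold change 2.55, adjusted p = 0.000243). Both also rose in HFD-Res against HFD-NS (adjusted p = 3.1e-05 and 0.000366). Chac1, a glutathione-degrading enzyme, was at 0.535 ± 0.257 CPM in SD-NS, 2.20 ± 0.413 in HFD-NS and 3.62 ± 0.938 in HFD-Res (log2 fold change 2.82, adjusted p = 0.000922 against SD-NS). Ccnd1, cyclin D1, which drives entry into the cell cycle, was at 13.05, 8.36 and 13.8 CPM in SD-NS, 22.3, 37.7 and 23.8 in HFD-NS and 205, 177 and 109 in HFD-Res (log2 fold change 3.80 with an SE of 0.431, adjusted p = 6.91e-05), with 21.7% of its exons overlapping another gene. Of 32 cell cycle genes 1 rose, Ccnd1 itself, and 2 fell.

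Of 20 p53 targets 4 rose and 2 fell, with 2 rises without SD-NS replicate 6, SD-NS replicate 7 or HFD-Res replicate 34. Cdkn1a, the cell cycle inhibitor p21, fell from 127, 131 and 129.7 CPM to 37.9, 23.2 and 40.1 (log2 fold change -1.92, adjusted p = 0.00214), and Ccng1, cyclin G1, rose from 38.6 ± 3.58 to 56.8 ± 6.77 (log2 fold change 0.57, adjusted p = 0.00203). Among 18 heat shock genes 2 rose (11.1%) and 1 fell (5.56%), no more than the 11.5% and 15.4% of all genes. Fkbp4, a cochaperone of steroid receptors, rose from 120.0 ± 6.85 to 256 ± 29.4 CPM (log2 fold change 1.09, adjusted p = 9.23e-06). Cytosolic ribosomal protein genes were slightly lower, with 27 falls among 57 and a median log2 fold change of -0.28, and HFD-NS gave 44 falls. The falls numbered 12 on TPM, 16 without SD-NS replicate 6, 17 without SD-NS replicate 8, 15 without HFD-Res replicate 29 and 13 without HFD-Res replicate 30. Rpl12 went from 206 ± 2.40 to 137 ± 10.8 CPM (log2 fold change -0.58, adjusted p = 0.000539). In the respiratory chain list there were 5 rises among 41 (12.2%), near the 11.5% of all genes. Rises numbered 16 on TPM, 2 without SD-NS replicate 7, SD-NS replicate 8 or HFD-Res replicate 29 and 1 without HFD-Res replicate 34. Ndufb3, a complex I subunit, rose from 56.6 ± 3.49 to 83.8 ± 7.85 CPM (log2 fold change 0.57, adjusted p = 0.000307).

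Genes of the liver lobule's zones differed in direction. Pericentral genes, which surround the central vein under Wnt control, gave 16 rises and 2 falls among 27 (median log2 fold change 0.84), and periportal genes of the urea cycle and amino acid breakdown 3 rises and 15 falls among 30 (median -0.67). HFD-NS gave 11 rises for the pericentral list, and 5 rises and 14 falls for the periportal list. Without any 1 of SD-NS replicates 6, 7 and 8 or HFD-Res replicates 29 and 34, 1 periportal gene rose. Lect2, a secreted hepatokine, was at 35.5, 43.6 and 40.8 CPM in SD-NS, 148, 165 and 146 in HFD-NS and 229.5, 204 and 196 in HFD-Res, each group above the one before (log2 fold change 2.40 with an SE of 0.110, adjusted p = 1.45e-11). Slc13a3, a dicarboxylate transporter, rose from 4.62 ± 1.01 to 32.7 ± 1.296 CPM (log2 fold change 2.88, adjusted p = 2.63e-05), and HFD-NS was at 28.2 ± 5.83. Oat, ornithine aminotransferase, and Cyp1a2, a drug-metabolising P450, were the pericentral genes that fell, Oat from 1334 ± 196 to 485 ± 101.1 CPM (log2 fold change -1.46, adjusted p = 0.00667) and Cyp1a2 from 231 ± 20.1 to 149 ± 33.0 (log2 fold change -0.64, adjusted p = 0.00778).

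On the periportal side, Etnppl, a lyase of phosphoethanolamine (chromosome 3, 130411097 to 130429399 in mm39), was at 291, 298 and 301 CPM in SD-NS, 59.8, 67.8 and 88.0 in HFD-NS and 6.21, 5.29 and 5.67 in HFD-Res. It was lower in each group than in the one before and ended at 1.93% of SD-NS (log2 fold change -5.69 with an SE of 0.458, adjusted p = 4.92e-06; against HFD-NS, log2 fold change -3.65, adjusted p = 0.000302). Sds, the serine dehydratase of gluconeogenesis from amino acids, went from 128, 108 and 97.0 CPM to 22.9, 19.3 and 27.8 (log2 fold change -2.24, adjusted p = 0.00017), while HFD-NS stood at 89.3 ± 19.4 (adjusted p = 0.00105 for HFD-Res against HFD-NS). Its relative Sdsl was at 17.2 ± 5.497 CPM in SD-NS, 4.92 ± 0.467 in HFD-NS and 3.43 ± 0.643 in HFD-Res (log2 fold change -2.32, adjusted p = 3.47e-06). Cps1, the first enzyme of the urea cycle, fell from 5319.7 ± 364 to 2713 ± 354 CPM (log2 fold change -0.97, adjusted p = 0.00838), near the 2921 ± 568 of HFD-NS.

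Some lysosomal genes fell in HFD-Res against the standard diet, whereas HFD-NS held more rises than falls. Of 33 tested, 10 fell in HFD-Res, and 7 rose and 2 fell in HFD-NS, while 11 fell directly between HFD-Res and HFD-NS. The falls against SD-NS numbered 6 without SD-NS replicate 7, 5 without HFD-Res replicate 30 and 5 on TPM. Hexa, a subunit of hexosaminidase, was at 45.7, 36.4 and 43.6 CPM in SD-NS, 68.2, 70.9 and 53.7 in HFD-NS and 26.98, 20.2 and 25.1 in HFD-Res. It rose on the diet alone (log2 fold change 0.61, adjusted p = 0.0078) and fell in HFD-Res (log2 fold change -0.79, adjusted p = 0.00205 against SD-NS and adjusted p = 1.33e-05 against HFD-NS). Lipa, the lysosomal acid lipase, fell from 475 ± 20.5 to 226 ± 34.5 CPM (log2 fold change -1.07, adjusted p = 1.07e-06), and Sqstm1, the autophagy adaptor p62, from 535 ± 29.3 to 319 ± 19.6 (log2 fold change -0.75, adjusted p = 4.25e-05). Among 23 iron genes 4 rose (17.4%) and 5 fell (21.7%), beside 11.5% and 15.4% of all genes. The list's median log2 fold change was 0.025. Id1, Smad6 and Smad7, which respond to BMP signalling, rose from 3.15 ± 0.501 to 12.6 ± 3.43, from 1.44 ± 0.583 to 5.46 ± 1.498 and from 6.06 ± 0.876 to 13.8 ± 1.39 CPM (adjusted p = 0.00104, 0.000872 and 0.000171), with 8.78 ± 4.51, 4.84 ± 1.17 and 15.01 ± 2.86 in HFD-NS. BMP signalling itself was not tested.

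Outside these lists, some of the largest differences were genes absent from one group. Akr1c18, a reductase that inactivates progesterone, had no count in SD-NS and stood at 30.4, 42.6 and 28.9 CPM in HFD-Res, at least 179-fold higher than a floor of 3 counts over the SD-NS group, and at 0.117, 0.497 and 0.632 in HFD-NS (adjusted p = 2.56e-06 against SD-NS). Wfdc16, a small secreted protein gene, was likewise 0 in SD-NS and 15.2, 14.5 and 9.01 CPM in HFD-Res, at least 66.6-fold higher (adjusted p = 5.88e-08). Dnah11, a dynein heavy chain of cilia, went from 0, 0.194 and 0.281 CPM to 19.3, 29.4 and 18.3 (log2 fold change 7.28, adjusted p = 2.49e-08). Glod5 had no count in SD-NS and 2.78, 2.76 and 2.76 CPM in HFD-Res, at least 14.95-fold higher (adjusted p = 0.0001). In all of them HFD-Res was separate from both untreated groups.

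For Klhl31, Cpne5, Nup62cl, Adgrf1 and Pitx3, HFD-NS is given beside HFD-Res because it differed from SD-NS in the same direction. Klhl31 was 0 in SD-NS, 0.584, 2.11 and 3.69 CPM in HFD-NS and 4.71, 2.53 and 1.02 in HFD-Res, at least 13.6-fold above SD-NS, with a call (adjusted p = 0.0156) lost without SD-NS replicate 6 (0.0543) and on TPM (0.0603). Cpne5, a calcium-dependent membrane-binding protein, was at 3.73, 3.11 and 2.25 CPM in SD-NS and had no count in HFD-NS or HFD-Res, at least 17.00-fold lower in HFD-Res (adjusted p = 0.000153). Nup62cl fell from 3.06 ± 1.38 to 0.0969 ± 0.168 CPM (adjusted p = 0.000376) and Adgrf1, an adhesion receptor, from 4.21 ± 1.79 to 0.196 ± 0.0450 (adjusted p = 0.00231), with 0.0778 ± 0.135 and 0.295 ± 0.208 in HFD-NS. Pitx3, a homeobox factor, was at 8.65, 11.5 and 6.75 CPM in SD-NS, 2.22, 0.621 and 1.79 in HFD-NS and 0.642, 0.230 and 0.581 in HFD-Res (log2 fold change -4.12, adjusted p = 2.04e-06). Dio3os, the antisense transcript of the thyroid hormone-inactivating deiodinase Dio3, was at 3.06, 1.36 and 3.09 CPM in SD-NS, at 0.350, 0.248 and 1.58 in HFD-NS, overlapping SD-NS, and had no count in HFD-Res, at least 13.4-fold lower than SD-NS (adjusted p = 0.000341). The counts do not use strand. In the annotation counted, 1.64% of the exons of Dio3os overlap another gene, and Mir1247 is the only such gene.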

How the data were processed

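The authors deposited raw gene counts of 15 mouse liver libraries. The file headers show that the authors counted exon reads with featureCounts 2.0.1 without strand, each read being counted for every gene it overlapped, and per the submitters' processing notes the genome build was mm39 and the tools included STAR 2.7.10b, Bowtie 1.3.1 and Trim Galore 0.6.10. Close gene copies (Mup, Sult2a, Cyp, Saa, Serpina1, Gbp and Oas families) may therefore share or lose reads. The deposited TPM table served as an alternative for the comparison of HFD-Res with SD-NS, and 3 of its columns could not be tied to samples and were not used.

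The members and gene lists were chosen with earlier results of these data known, and family sums after values were seen. All 15 libraries entered 1 edgeR 4.0.16 fit (R 4.3.3, filterByExpr, TMM, robust quasi-likelihood, 5 groups), which tested 13189 genes and left out 13075. The common biological coefficient of variation was 0.134. P-values were Benjamini-Hochberg adjusted over all genes tested and called under 0.05. Folds against a group without counts used a floor of 3 counts over that group, which covers counting error only. The rule for named genes took those called, averaging at least 1 CPM, without overlap between groups and without a provisional name. Of these it took the 15 largest rises, the 15 largest falls and up to 3 genes a direction in each list. Further genes (Thrb, Thra, Dio1, Thrsp, Me1, Gpd2, Klf9, Cyp7a1, Stk25 and defining cell markers) were taken whatever their result. It gave 208 genes, not all of which are described, and some results are not reported here.

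The alternatives tried were DESeq2 1.42.0, limma-voom (limma 3.58.1), edgeR with RLE size factors, edgeR on genes of any count, a fit of the 2 groups only, limma on log2(TPM + 1) where 3 libraries reached a TPM of 1, and leaving out each library. The edgeR step was tested on simulated data of this comparison with 200 changed genes among 12915, where it recovered 62% of 2-fold and 27% of 1.5-fold changes and 6.316% of calls were false. Promoters came from RefSeq (GRCm38.p6), matched by symbol, since the counts are on mm39, and exon overlaps were computed from the annotation in the count file with its own coordinates.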

Additional observations from a re-analysis of the deposited data

How the results depend on the processing

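No paired analysis was possible because animal numbers are not shared between groups. For HFD-Res against SD-NS (3543 genes called), falls numbered 1280 on recomputed and 1173 on deposited TPM, and falls of 2-fold or more 310 and 305. Leaving out 1 library gave 2714 to 3100 calls, 1162 to 1329 rises, 1552 to 1771 falls, and 569 to 628 rises and 414 to 465 falls of 2-fold or more. For HFD-NS against SD-NS, recomputed TPM gave 1098 falls, 162 of them of 2-fold or more, and leaving out 1 library gave 2478 to 3278 calls, 1054 (without SD-NS replicate 7) to 1399 rises and 1424 to 1925 falls, with 428 to 633 rises and 253 to 318 falls of 2-fold or more. For HFD-Res against HFD-NS, leaving out 1 library gave 1134 (without HFD-Res replicate 34) to 1467 calls, 581 to 711 rises and 553 to 756 falls. The deposited TPM could not serve the HFD-NS comparisons. Of 155 tested genes described here, 151 were called in HFD-Res against SD-NS. Of these, 137 were called in every alternative that tested them, and 0 genes changed direction in any alternative that tested them. Some alternatives left out genes that the main fit tested. A fit of the 2 groups only tested 11512 genes and gave 1835 rises and 1746 falls in HFD-Res against SD-NS, and more rises on several lists: 9 of glucose genes, 8 of the growth hormone axis, 6 each of acute phase, complement and periportal genes and 4 of heat shock genes. Limma-voom gave 7 falls of apolipoprotein and 8 of iron genes. The cause of these shifts was not tested. In the simulated data, with 3 libraries a side and 200 changed genes among 12915, changes of 1.5-fold were often missed. The real comparison gave far more calls, so the simulated shares may not carry over to it.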

Other observations

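Some genes named by the same rule belong to smaller families and are given here as values. Cyp2b9, a female-biased P450 induced by fat and xenobiotics, was at 1.997, 1.17 and 2.25 CPM in SD-NS, 151, 464 and 192 in HFD-NS and 81.6, 60.3 and 146 in HFD-Res, above SD-NS in every high-fat library. Its call for HFD-Res against SD-NS (log2 fold change 5.75, adjusted p = 0.00488) was lost in limma-voom (adjusted p = 0.0668). Fmo1, a flavin monooxygenase, rose from 252, 239.7 and 240.2 CPM in SD-NS to 449, 438 and 354 in HFD-Res (log2 fold change 0.76, adjusted p = 4.72e-05). Acsl3, an acyl-CoA synthetase of lipid droplets, was at 27.2, 18.7 and 19.7 CPM in SD-NS, 14.01, 19.6 and 15.5 in HFD-NS and 43.9, 63.02 and 38.1 in HFD-Res (log2 fold change 1.11, adjusted p = 0.000193 against SD-NS), with 10.6% of its exons overlapping another gene. HFD-Res held its highest libraries. Trib3, a stress-induced pseudokinase that restrains AKT, rose from 3.87 ± 1.44 to 11.1 ± 1.77 CPM (log2 fold change 1.59, adjusted p = 0.00155), with 8.93 ± 2.78 in HFD-NS. Wfdc2, a secreted epithelial protein gene, was at 6.79, 4.86 and 6.19 CPM in SD-NS, 14.2, 14.03 and 7.80 in HFD-NS and 2.57, 1.61 and 2.18 in HFD-Res. It rose in HFD-NS (log2 fold change 0.999, adjusted p = 0.0105) and fell in HFD-Res (log2 fold change -1.48, adjusted p = 0.00414). Sox9, a bile duct transcription factor, fell from 16.9 ± 0.791 to 5.83 ± 1.501 CPM (log2 fold change -1.58, adjusted p = 0.000808).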
